A study of Mus musculus with 15 samples.

Results

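Calcineurin, its Rcan regulators and its Nfat targets were followed through the CpG methylation of 10 genes in the mouse dentate gyrus: Rcan1, Rcan2, Rcan3, Ppp3ca, Ppp3cb, Ppp3cc, Ppp3r1, Nfatc1, Nfatc2 and Nfatc4. The members were the CpG rows of the deposited table, each 1 cytosine on 1 strand, that lay inside these genes or within 5 kb of them in the GRCm38 RefSeq annotation, rows with missing mice included. They numbered 349 of 455,836 CpG rows, and 61 of them had a value in all 15 mice. The members were chosen by measured values, the wide difference between standard and enriched mice at one end of Rcan1. The 7 rows within 1 kb of that end are therefore described without a test, and no count of tested rows below includes them.

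Reduced representation bisulfite sequencing (RRBS), which reads the CpG-rich fraction of the genome after bisulfite has converted unmethylated cytosines, was done on dentate gyrus dissected from female C57BL/6JRj mice aged 7.5 months. The labels name no allele, transgene or drug, and each of the 3 groups held 5 mice. Standard mice spent 6 months in standard cages, enriched mice spent 6 months in an enriched environment, and withdrawal mice spent 3 months in enrichment and then 3 months in standard cages. The labels do not say which mice shared a cage, and the tissue was taken whole, so a different mix of cells and different methylation within 1 cell type cannot be told apart. The values are percentages with no read count, so the depth behind each is unknown. The number of member rows with a value, a partial view of depth, ran from 194 in standard mouse 1 to 337 in withdrawal mouse 4.

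Calcineurin is the phosphatase that calcium and calmodulin switch on. Its catalytic subunit comes from Ppp3ca, Ppp3cb or Ppp3cc, and its calcium-binding regulatory subunit from Ppp3r1. The Rcan proteins bind calcineurin and restrain it. Nfatc1, Nfatc2 and Nfatc4 encode transcription factors that enter the nucleus once calcineurin has dephosphorylated them, and there bind DNA with the core letters GGAAA. The shorter Rcan1 transcript is known as an Nfat target, which closes a feedback loop. In hippocampal neurons calcineurin is known for its part in synaptic depression, and Nfatc4 for its part in neuronal growth and in the survival of new neurons.

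Promoter sequences, each 300 bases from 250 before to 50 after a transcript start, were taken from RefSeq (GRCm38.p6), which held 7 of the 10 genes. Those of Ppp3ca, Ppp3cc and Nfatc1 were not in the table. The Ppp3r1 and Nfatc4 promoters are shown because they hold the most measured CpGs among the members, and because one was at 0% and the other partly methylated. Capitals mark the CpGs with a measured row, on either strand. The Rcan1 promoter is that of the start inside the gene at 92400078, and its capitals mark GGAAA on either strand, so TTTCC where the match is on the other strand.
Ppp3r1, chr11:17159048-17159347, plus strand: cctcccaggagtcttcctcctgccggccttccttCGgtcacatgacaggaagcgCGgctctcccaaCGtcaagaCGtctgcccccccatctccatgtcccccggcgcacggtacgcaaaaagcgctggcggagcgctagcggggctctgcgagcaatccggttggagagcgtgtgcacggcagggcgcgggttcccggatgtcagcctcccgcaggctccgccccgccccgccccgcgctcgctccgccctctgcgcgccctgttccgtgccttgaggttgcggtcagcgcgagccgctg
Nfatc4, chr14:55824545-55824844, plus strand: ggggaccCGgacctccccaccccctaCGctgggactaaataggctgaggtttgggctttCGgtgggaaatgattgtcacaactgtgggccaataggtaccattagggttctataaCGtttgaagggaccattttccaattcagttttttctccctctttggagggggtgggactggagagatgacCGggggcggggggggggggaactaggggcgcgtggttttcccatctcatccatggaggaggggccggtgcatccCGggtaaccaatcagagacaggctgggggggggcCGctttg
Rcan1, chr16:92400029-92400328, minus strand: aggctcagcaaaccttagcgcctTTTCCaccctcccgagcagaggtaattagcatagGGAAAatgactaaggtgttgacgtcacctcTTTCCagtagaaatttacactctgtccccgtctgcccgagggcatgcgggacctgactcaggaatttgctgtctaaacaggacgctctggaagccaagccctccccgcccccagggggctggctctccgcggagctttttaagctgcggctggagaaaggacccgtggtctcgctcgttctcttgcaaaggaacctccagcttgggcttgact

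The Ppp3r1 window held 36 CpGs, a number reached by 6.23% of all 32,851 promoter windows, and its 4 measured rows were at 0% in every mouse with a value. The Nfatc4 window held 11 CpGs, a number reached by 41.4% of windows, and 7 of them were measured. Methylation over those 7 rows averaged 8.53% in standard mice, 12.1% in enriched mice and 10.8% in withdrawal mice. The 3 rows farthest upstream held most of it: the row at 55824571 averaged 19.9%, 35.2% and 25.9% in the 3 groups, whereas the row at 55824838, beyond the start, averaged 1.43%, 0% and 4.86%. GGAAA was found at 4 places in the Ppp3cb window and at 0 in that of the longer Rcan1 start. The windows of Nfatc4 and of the Nfatc2 start at 168601657 held 3 matches each, so such a number is not particular to Rcan1. The Rcan1 window shown also held 3, and 9.42% of all promoter windows held as many or more, while 61.3% held at least 1. It had 14 CpGs but no CCGG, the sequence at which the enzyme commonly used for RRBS cuts, which 52.8% of windows contained, and no CpG row was measured in it. No value here bears on methylation at this start. The window of the longer Rcan1 start, with 33 CpGs and 3 CCGG, had no measured row either. The Ppp3r1 and Nfatc4 windows held 4 CCGG each. Why a window lacked rows was not tested.

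Across the 349 member rows, 190 (54.4%) averaged less than 20% methylation, 96 (27.5%) were intermediate at 20% to 80%, and 63 (18.1%) exceeded 80%. Over all CpG rows other than those of the Y chromosome and mitochondria these shares were 52.4%, 17.2% and 30.4%. The mean was 31.8% over member rows and 38.9% over all CpG rows. Of the members, 282 rows lay inside a gene and 67 outside, and 61 rows were at 0% in every mouse with a value.

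**Figure D1:**
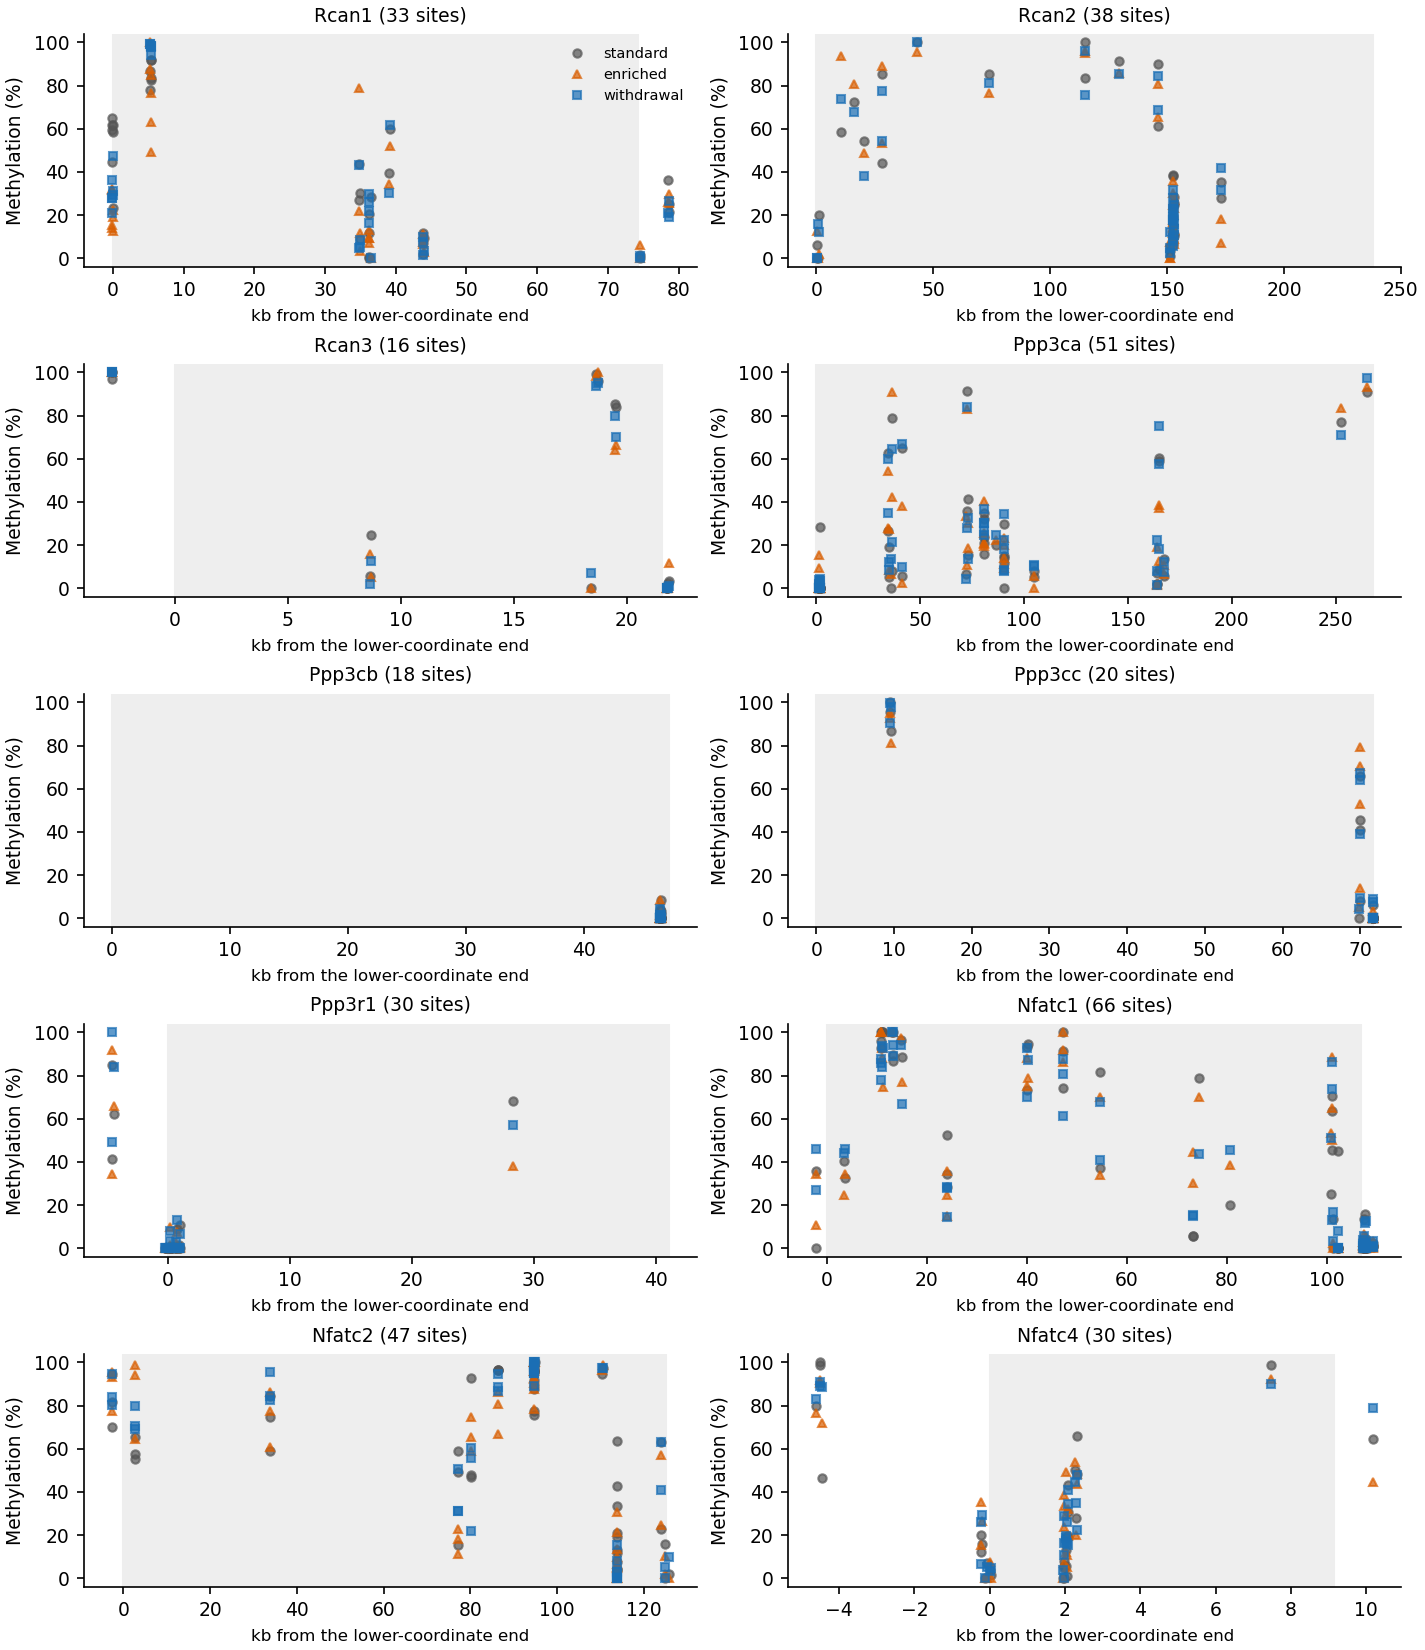
Group mean methylation (%, vertical axis) of every member CpG row by its distance in kb from the lower-coordinate end of its gene; the grey band is the gene, grey circles are standard, orange triangles enriched and blue squares withdrawal mice. Rows near the starts of Ppp3cb, Ppp3r1 and Rcan3 sit close to 0%, and intermediate levels are found inside Rcan1, Ppp3ca, Nfatc1 and Nfatc4.

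None of the 268 tested member rows passed after adjustment over the whole table in any of the 3 comparisons, as was the case for all 350,663 CpG rows tested (0% called). Single rows could hardly pass this adjustment, so a row that was not called is not shown to be unchanged. At an unadjusted limma p under 0.05, 17 member rows (6.34%) separated enriched from standard mice, 9 higher and 8 lower, where 4.67% of all rows did. For withdrawal against standard there were 14 (5.22%), 7 higher and 7 lower, against 4.30% of all rows. For withdrawal against enriched there were 11 (4.10%), 5 higher and 6 lower, against 4.18% of all rows. The directions were split. Among rows with a value in all mice, 53 of which were member rows tested, the shares were 13.2%, 11.3% and 7.55% of member rows against 5.15%, 4.42% and 4.30% of all rows in the 3 comparisons, and among rows with at least 4 mice in every group (134 member rows) they were 9.70%, 8.96% and 6.72% against 4.85%, 4.41% and 4.27%. Neighbouring rows are not independent, and these differences in share were not tested. Of 11 tested member windows 2, 3 and 0 had an unadjusted p under 0.05 in the 3 comparisons, against 5.75%, 4.56% and 4.20% of all 13,912 windows, with 0 called by limma. Of the 2 tested member gene ends, Ppp3r1 is the one outside the choice: it was at an unadjusted p under 0.05 for enriched against standard alone, against 5.22%, 4.54% and 4.64% of 3103 gene ends in the 3 comparisons, and 0 were called. The median difference between group means over the member rows other than the Rcan1 end was 0 points in each comparison, as over all CpG rows. Differences over 20 points were seen in 11.1%, 9.65% and 8.48% of these member rows and in 6.71%, 5.69% and 5.53% of all CpG rows. Intermediate levels were found in 26.0% of these member rows and in 17.2% of all CpG rows, and what part this had in those shares was not tested.

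The gene with the lowest level was Ppp3cb, with a mean of 0.809% over its 18 rows, followed by Ppp3r1 at 9.71%, Ppp3ca at 21.0%, Ppp3cc at 23.8%, Nfatc4 at 32.5%, Rcan1 at 34.5%, Rcan2 at 34.7%, Nfatc1 at 35.9%, Rcan3 at 42.0% and Nfatc2 at 59.2%. Each is a mean over whichever positions RRBS covered, so the order reflects where the rows lie as well as the gene. Because mice lacked different rows, the level in 1 mouse was taken as its mean deviation from the row means, added to the gene's mean. On this scale the 15 mice of Ppp3cb lay below all mice of Ppp3r1, and those of Nfatc2 above all mice of Rcan3. Every other pair of neighbours in the order overlapped. Within each of the 10 genes, the 3 groups of mice overlapped as well.

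**Figure D2:**
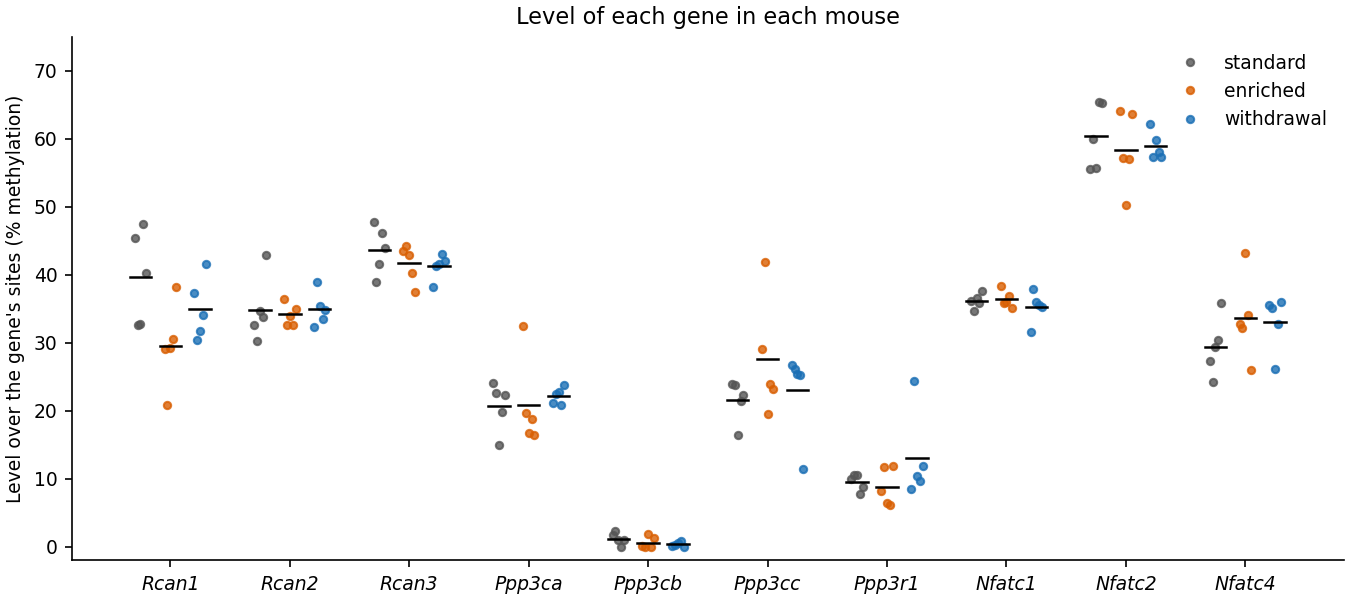
Methylation level of each member gene (%, vertical axis) in each mouse, as the mean deviation from the row means added to the gene's mean, with a bar at each group's mean; grey is standard, orange enriched and blue withdrawal. The groups overlap in every gene; the Rcan1 values include the 7 rows by which the genes were chosen.

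Rcan1 (chr16:92391951-92466169, minus strand) encodes the best known calcineurin inhibitor of the family and had 33 rows. At the end by which the genes were chosen, which is the 3′ end of this gene, 4 rows of the plus strand at 92391834, 92391868, 92391906 and 92391909 had a value in all mice. They lie 42 to 117 bases beyond the gene. Their mean was 68.7%, 50.5%, 48.3%, 98.1% and 35.7% in standard mice 1 to 5. It was 17.6%, 23.5%, 3.05%, 17.1% and 18.8% in enriched mice 1 to 5. It was 31.8%, 26.7%, 5.08%, 25.8% and 55.5% in withdrawal mice 1 to 5. Every enriched mouse lay below every standard mouse, which is what the choice of the genes used, so it is no finding here. Of the 5 withdrawal mice, 4 were above every enriched mouse and 4 were below every standard mouse.

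The group means were 60.2% ± 24.2 (SD, n = 5) in standard mice, 16.02% ± 7.68 in enriched mice and 29.0% ± 18.03 in withdrawal mice. Enriched mice were thus 44.2 points below standard mice, the difference that chose the members. Among 4326 gene ends with at least 3 complete CpG rows, the widest difference outside that choice was 30.6 points. Withdrawal mice were 31.3 points below the same standard mice, so this difference is not independent of the choice either, and the next widest was 29.5 points. The standard mice also differed widely among themselves: only 20 gene ends (0.462%) had a larger SD in that group, against 389 (8.99%) with a larger SD among enriched and 24 (0.555%) among withdrawal mice. The median SD of the 338 gene ends with a mean between 20% and 80% was 9.44, 10.3 and 7.91 points in the 3 groups.

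Within a mouse the 4 rows were alike. Their pairwise correlations over the 15 mice were 0.954 to 0.991, and the widest gap between them within a mouse was 21.4 points (median 7.41). They span 76 bases on 1 strand and can share reads, so they are not independent measurements. The 2 incomplete plus-strand rows farther out, at 92391765 and 92391792, averaged 44.7% and 64.8% in standard mice, 32.2% and 31.6% in enriched mice, and 36.3% and 20.7% in withdrawal mice. The one measured row of the minus strand, at 92392025, lies 74 bases inside the gene and 116 bases from the nearest complete row. There standard mice had 0%, 13.6%, 20%, 45.5% and 37.5%, enriched mice 1 to 4 had 0%, 54.5%, 16.7% and 4.76%, and withdrawal mice had 34.04%, 12.5%, 50%, 60% and 80%. Standard and enriched mice overlapped at this row, and its correlation with the 4-row mean was 0.116 over 14 mice. Cytosines outside CpGs near this end stayed low, at 1.30%, 0.697% and 0.919% over 35 rows in the 3 groups.

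**Figure D3:**
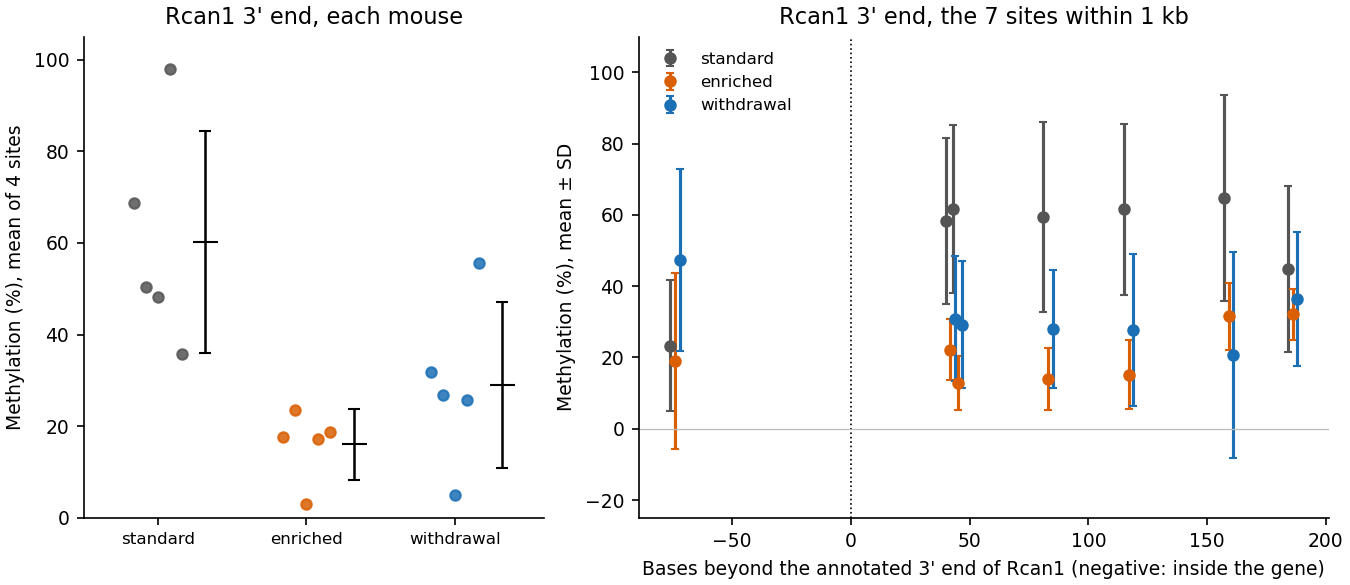
Left, methylation (%) at the Rcan1 3′ end as the mean of 4 rows in each mouse, with the group mean ± SD; right, group mean ± SD (%) of the 7 rows within 1 kb by distance in bases beyond the 3′ end (SD bars can pass below 0). Enriched mice lie between 3.05% and 23.5%, below all standard mice (35.7% to 98.1%); the row inside the gene does not separate the groups.

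**Figure D4:**
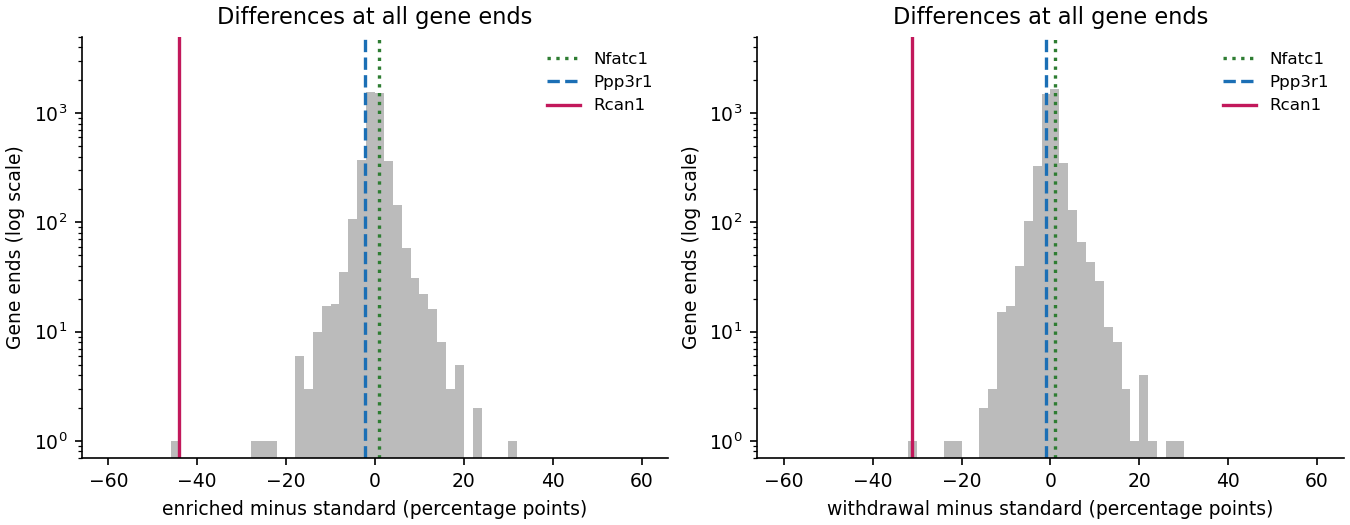
Number of gene ends (log scale) by the difference in mean methylation in percentage points, enriched minus standard on the left and withdrawal minus standard on the right, over 4326 gene ends; lines mark the 3 member gene ends. Rcan1, chosen on the difference at the left, stands at -44.2 and -31.3 points, while Ppp3r1 and Nfatc1 sit within 2.23 points of 0.

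The gene ends that followed the Rcan1 end most closely over the 15 mice, among 4315 compared, were those of Trpm7 (r = 0.824), Xbp1 (r = 0.824) and Lamtor5 (r = 0.788). Their levels were far lower, at most 6.67%, 11.5% and 4.15% in a mouse. These correlations share the same libraries and were picked as the highest.

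Away from this end the 26 other Rcan1 rows averaged a level of 35.6% ± 7.03 (SD, n = 5) in standard mice, 32.1% ± 8.39 in enriched mice and 35.6% ± 2.47 in withdrawal mice, a difference of -3.49 points for enriched against -10.1 points with the end included. The promoter window of the longer transcript had no measured row, so methylation at that start is unknown. The 2 rows nearest to it, both incomplete, lay 287 and 311 bases upstream. They averaged 0.658% in standard mice, 3.12% in enriched mice and 0.575% in withdrawal mice. In the interior, 6 rows between 92397229 and 92397361, downstream of the shorter start, were highly methylated, with row means from 78.2% to 92.4%. Of these, the row at 92397329 on the minus strand was at 66.7%, 63.6%, 100% and 100% in standard mice 2 to 5, at 14.3%, 50%, 33.3% and 100% in enriched mice 2 to 5, and at 88.9%, 100%, 100%, 100% and 100% in withdrawal mice (withdrawal against enriched, limma adjusted p = 0.922). The neighbouring row at 92397302 gave 14.3%, 76.9%, 61.5% and 100% in enriched mice 2 to 5 and 91.4% to 100% in withdrawal mice (limma adjusted p = 0.922). At both rows enriched mouse 5 was as high as the withdrawal mice, and standard mouse 1 and enriched mouse 1 had no value. At the 4 rows from 92428126 to 92428180 some mice were alike over all rows, such as withdrawal mouse 5 at 46.2% to 47.2% and enriched mouse 5 at 30%, and others were not, such as standard mouse 1 at 0% at 2 rows and at 47.1% and 43.8% at the others. The 2 Rcan1 windows of complete rows away from the 3′ end had overlapping groups. At 92435792 to 92435894 they averaged 7.54% ± 4.67, 7.07% ± 2.503 and 5.51% ± 3.10 (SD, n = 5), and at 92470450 to 92470548, upstream of the longer start, 27.5% ± 13.2, 27.1% ± 8.38 and 22.2% ± 15.9.

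Rcan2 (chr17:43801352-44039516, plus strand), a calcineurin inhibitor expressed in brain, had 38 rows, all inside the gene. Rows between its 2 outer and its internal start were mostly methylated, and rows around the starts mostly not. The row at 43802402, 551 bases beyond the start at 43801851, was at 26.4%, 14.8%, 11.1%, 17.1% and 31.5% in standard mice and at 0%, 3.28%, 6.33%, 0% and 0% in enriched mice. Withdrawal mice had 41.8%, 14.0%, 0%, 4.49% and 0%. The standard and enriched mice did not overlap, but the difference did not pass over the whole table (limma adjusted p = 0.892), and the withdrawal mice spanned both. At the internal start at 43952999, 9 rows averaged 8.53%, 10.3% and 14.1% in the 3 groups. The row at 43952545, just before it, was at 0% in all 5 enriched mice, in 4 of 5 standard mice (28.6% in standard mouse 5), and at 0%, 15.6%, 11.9%, 14.3% and 18.75% in withdrawal mice (withdrawal against enriched, limma adjusted p = 0.922). Over the 3 complete rows that hold this position the groups overlapped, at 3.31% ± 3.91, 2.56% ± 3.24 and 6.43% ± 4.62 (SD, n = 5). They also overlapped at 5 complete rows beyond this start, at 43954057 to 43954138, with 19.3% ± 5.12, 15.1% ± 4.94 and 15.8% ± 7.74. Rcan3 (chr4:135412308-135433871, minus strand), a further inhibitor of the family, had 16 rows and none with a value in all mice. The 6 rows near its start averaged 0.948%, 1.92% and 0.137%, whereas 3 rows beyond its 3′ end were at 98.96% to 100% in every group. None of the 10 tested Rcan3 rows had an unadjusted limma p under 0.05, where 4.67%, 4.30% and 4.18% of all rows did in the 3 comparisons. So few rows can easily hold none at such a share.

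Among the catalytic subunits, Ppp3ca (chr3:136669714-136937727), the main form in brain, had 51 rows. Its 14 rows nearest the lower-coordinate end averaged 1.64%, and most of the interior lay at low to intermediate levels. The row at 136833662 on the plus strand had the smallest p of the member rows outside the Rcan1 3′ end in both comparisons with standard mice. It was at 0%, 0%, 9.52%, 0% and 0% in standard mice, at 35.1%, 20.4%, 12.1%, 8.25% and 18.9% in enriched mice, and at 28%, 20%, 38%, 16% and 8.86% in withdrawal mice. All 10 mice that had lived in enrichment had some methylation and 4 of 5 standard mice had none, with standard mouse 3 overlapping the lowest of the others. The differences were 17.0 points for enriched (limma adjusted p = 0.892) and 20.3 points for withdrawal mice (limma adjusted p = 0.911), and they share the standard mice. Averaged with its 2 neighbours between 136833655 and 136833762, the level was 0%, 3.70%, 8.10%, 6.44% and 0% in standard mice, 11.7%, 6.79%, 4.02%, 8.57% and 6.29% in enriched mice, and 14.99%, 14.4%, 12.7%, 8% and 2.95% in withdrawal mice. The groups overlapped there, and the withdrawal difference of 6.95 points did not pass (limma adjusted p = 0.997).

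The other Ppp3ca rows with small p-values pointed in different directions. At 136742464 standard mice 1 to 4 had 38.1%, 37.5%, 39.5% and 28.1%, and enriched mice had 54.5%, 0%, 0%, 0% and 0%, with withdrawal mice at 16.3% to 35.3% (enriched against standard, limma adjusted p = 0.892). Enriched mouse 1 was above all standard mice while the other 4 were below them. At 136741817 enriched mice had 37.04%, 0%, 24%, 76.9% and 30%, while 4 of 5 withdrawal mice were at 0% and the last at 20.9% (withdrawal against enriched, limma adjusted p = 0.922). Ppp3cb (chr14:20499364-20546573, minus strand) had 18 rows, all near its start, with row means of 0% to 4.96% and 12 rows at 0% in every mouse with a value. Ppp3cc (chr14:70217864-70289536) had 20 rows in 3 places: 12 near its higher-coordinate end averaging 0.714%, 5 rows at 70287756 to 70287814 averaging 37.7%, and 3 rows at 70227367 to 70227430. Those 3 averaged 94.03% ± 4.83 (SD, n = 5) in standard mice, 89.7% ± 7.20 in enriched mice and 95.99% ± 3.64 in withdrawal mice, with overlapping groups. None of the 5 tested rows of Ppp3cb or the 12 of Ppp3cc had an unadjusted limma p under 0.05. Of all rows 4.67%, 4.30% and 4.18% did in the 3 comparisons, a share at which so few rows can easily hold none.

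Ppp3r1 (chr11:17159298-17200380, plus strand), the regulatory subunit, had 26 of its 30 rows within 1 kb of its start, 15 of them at 0% in every mouse with a value, including the 4 capitals in the promoter above. The 5 complete rows at 17160215 to 17160278, within 1 kb of the start, averaged 0%, 1.07%, 1.79%, 6% and 3.36% in standard mice, 0%, 0%, 1.06%, 0% and 0% in enriched mice, and 0%, 1.56%, 1.59%, 0.926% and 2.59% in withdrawal mice. Enriched mice were 2.23 points lower than standard mice, and the 2 groups overlapped at 0% (gene end, limma adjusted p = 0.870). One row, at 17160278, held most of it, with 0%, 5.33%, 8.96%, 30% and 10.4% in standard mice, at most 1.75% in enriched mice, and 0%, 7.78%, 7.94%, 4.63% and 12.96% in withdrawal mice (enriched against standard, limma adjusted p = 0.892).

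**Figure D5:**
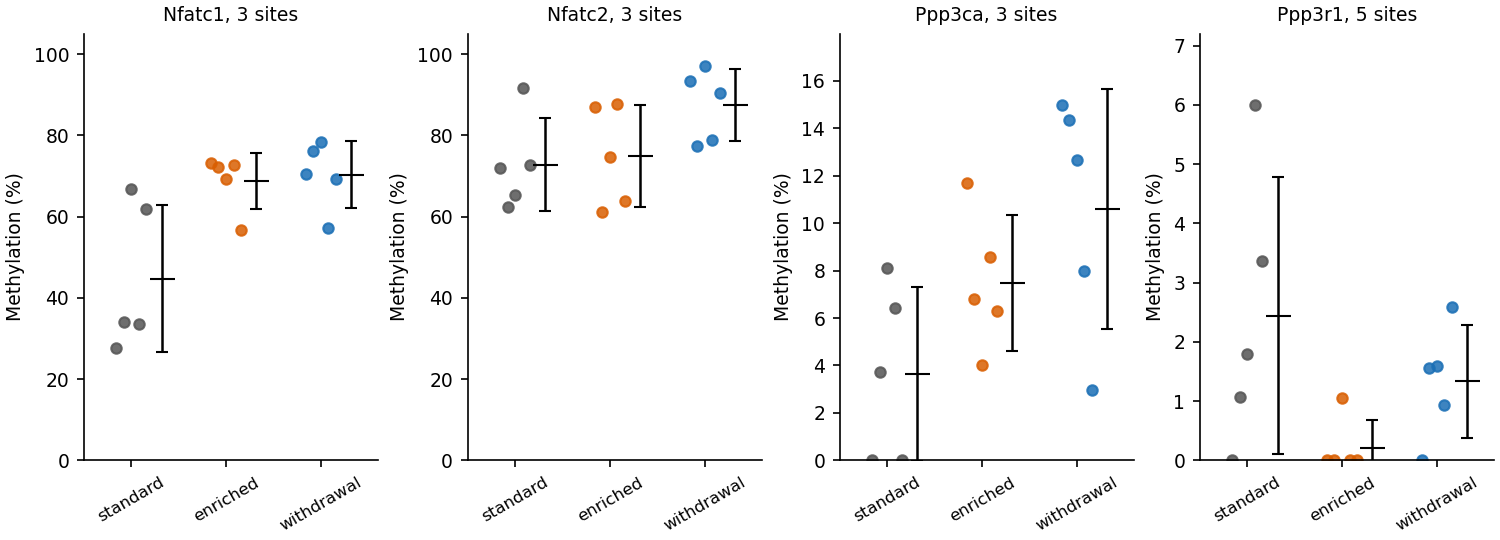
Mean methylation (%, vertical axis; scales differ) of the 4 member windows outside the Rcan1 3′ end with an unadjusted p under 0.05 in a comparison, 1 point per mouse, with the group mean ± SD; grey is standard, orange enriched and blue withdrawal. In Nfatc1, 3 of 5 standard mice sit near 30% and the other groups near 70%; no window passed after adjustment.

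Nfatc1 (chr18:80606205-80713071) had the most rows, 66, among them 20 near its higher-coordinate end with row means up to 9.23%. Its 4 complete rows there averaged 0.521% ± 0.718 (SD, n = 5) in standard mice, 1.32% ± 1.64 in enriched mice and 1.62% ± 0.716 in withdrawal mice, with too small a range to be tested. The window with the smallest p of those outside the Rcan1 3′ end, in both comparisons with standard mice, lay inside the gene, with 3 complete rows at 80707053 to 80707112. It was at 27.5%, 34.01%, 66.7%, 33.6% and 61.9% in standard mice 1 to 5. It was at 73.1%, 72.2%, 69.3%, 72.6% and 56.8% in enriched mice 1 to 5. It was at 70.6%, 76.2%, 78.2%, 57.2% and 69.3% in withdrawal mice 1 to 5. In each of the latter groups 4 of 5 mice were above every standard mouse, and the standard mice fell into a low set of 3 and a high set of 2. The differences from standard were 24.1 points for enriched (log2 ratio difference 1.34 ± 0.43 SE, limma adjusted p = 0.792) and 25.6 points for withdrawal mice (1.43 ± 0.43 SE, limma adjusted p = 0.997), again with the standard mice shared. The direction in this window is opposite to that at the Rcan1 end. The window is part of a run of 6 neighbouring rows that ends at 80707324, of which only these 3 are complete. Over the 6 rows the groups averaged 36.4%, 43.2% and 40.7%. The differences from standard were then 6.81 points for enriched and 4.31 points for withdrawal mice, so the wide difference did not extend over the run. The incomplete rows of the run, each without some mice, averaged higher in standard mice than in either other group, opposite to the window.

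Single Nfatc1 rows went both ways. The row at 80604134, 2071 bases outside the lower-coordinate end, was at 0% in all 5 standard mice, at 4%, 29.03%, 0% and 9.38% in enriched mice 1, 3, 4 and 5, and at 15.3%, 28%, 57.1%, 33.3% and 0% in withdrawal mice (withdrawal against standard, limma adjusted p = 0.911). The row at 80653464 was at 100%, 100%, 65.5% and 100% in standard mice 1 to 4, at 81.1% to 100% in 4 enriched mice, and at 36%, 64.7%, 77.8% and 66.7% in withdrawal mice 1, 2, 4 and 5 (limma adjusted p = 0.911 against standard and 0.922 against enriched). The row at 80617360 was at 100% in 3 standard mice and at 92.9%, 55%, 64.7% and 85.7% in enriched mice 1, 3, 4 and 5, without overlap (limma adjusted p = 0.892).

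Nfatc2 (chr2:168476410-168601657, minus strand) was the most methylated member, with 20 of its 47 rows above 80%. Beyond its 3′ end, 3 complete rows at 168473703 to 168473871 averaged 82.2% ± 10.8 (SD, n = 5), 88.7% ± 10.9 and 86.3% ± 4.23 in the 3 groups, which overlapped. At 3 complete rows between 168510118 and 168510169 the mean was 72.0%, 62.3%, 65.2%, 91.5% and 72.7% in standard mice, 87.1%, 61.01%, 74.6%, 87.7% and 63.9% in enriched mice, and 93.3%, 77.5%, 97.2%, 78.9% and 90.5% in withdrawal mice. The withdrawal mice all lay above 4 of the 5 standard mice, and the difference of 14.7 points did not pass (limma adjusted p = 0.997). Around its shorter start, at 168590365, 10 incomplete rows averaged 22.03%, 9.17% and 2.95% in the 3 groups. In single mice the values were high: on the minus strand standard mouse 5 was at 100% at 3 of 4 rows, and on the plus strand standard mouse 4 was at 46.7% at 3 of 6. The row at 168590264 was at 67.9%, 23.1% and 100% in standard mice 2, 3 and 5, at 56.25%, 0% and 36.4% in enriched mice 2, 3 and 4, and at 38.5%, 0%, 0%, 38.2% and 0% in withdrawal mice (withdrawal against standard, limma adjusted p = 0.911). Nfatc4 (chr14:55824795-55833943, plus strand) had 30 rows, none complete. Besides the promoter rows above, 17 rows at 55826737 to 55827126 averaged 21.3%, 26.4% and 23.4%. The row at 55820339, 4456 bases before the start, was at 0%, 58.6%, 69.6% and 58.3% in standard mice 1, 3, 4 and 5, at 78.6%, 100%, 40% and 70% in enriched mice 2 to 5, and at 100%, 90%, 100%, 71.4% and 82.1% in withdrawal mice, which all lay above the standard mice (withdrawal against standard, limma adjusted p = 0.911).

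The 5 kb limit fell between measured rows. The farthest rows kept lay 4623 bases from Ppp3r1, at 17154675 (41.1%, 34.4% and 49.3% in the 3 groups), and 4606 bases from Nfatc4, at 55820189 (79.8%, 76.4% and 83.3%). The nearest row left out lay 6205 bases from Rcan3, at 135440076 (56.05%, 32.6% and 16.8%).

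Of 41 other genes of the pathway (paralogs, calmodulins and other calcineurin-binding proteins, Nfat kinases, calcium channels and substrates), 8 had a gene end with at least 3 complete rows and 7 of these were tested. All 8 were nearly unmethylated, with means of 0.663% to 2.90%, and 0 were called by limma. Over the 3 comparisons, 1 of the 7 had an unadjusted limma p under 0.05, Cabin1 for withdrawal against enriched. The shares of all 3103 tested gene ends were 5.22%, 4.54% and 4.64%, so 1 such end does not stand out. Cabin1 encodes a calcineurin-binding inhibitor. It was at 0%, 2.40%, 2.56%, 1.94% and 3.17% in standard mice, 0%, 0%, 0.725%, 0% and 1.36% in enriched mice, and 3.70%, 1.19%, 2.58%, 2.84% and 6.22% in withdrawal mice (withdrawal against enriched, limma adjusted p = 0.772). Chp1, which encodes a calcineurin-like calcium-binding protein, followed with 0.136%, 2.16% and 0.475% in the 3 groups (limma adjusted p for enriched = 0.870), and Creb1, a transcription factor of the same calcium response, with 2.42%, 0.624% and 0.595% (limma adjusted p for withdrawal = 0.931). In both, 1 mouse held most of the highest group mean: enriched mouse 5 at 9.12% for Chp1 and standard mouse 2 at 7.97% for Creb1. Gene ends of the Nfat kinase Dyrk1a, of the calcium release channel Itpr1 and of Calm3 averaged 1.51%, 2.90% and 0.663%. Of 19 cell type markers, 4 had such an end, with means of 1.65% to 3.23%: Prox1 of granule cells, Slc1a2 of astrocytes, and Fibcd1 and Wfs1 of pyramidal neurons. Markers of neurons in general, of oligodendrocytes and of microglia had none, so the dissection could not be checked against them.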

How the data were processed

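The submitters' processing notes name Trim Galore 0.4.0, cutadapt 1.8.1, Bismark 0.16.1, methylKit 1.5.2 and the mm10 build, without roles or settings. Each deposited value is the percent methylation of a cytosine on 1 strand in 1 of 15 mice. No coverage comes with them, so depth is unknown and no interval or coverage minimum was computed. The table runs through the chromosomes 2 times. All 40,643 rows of the first run that fall in RefSeq promoter sequences (GRCm38.p6) are the C of a CG, and 0 of 118,360 rows of the second run are, so the first run was used as CpG rows.

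Values were transformed as log2((percent + 5)/(105 - percent)). limma 3.58.1 (R 4.3.3) was run with 1 mean per group and a variance trend on all 15 mice together, for every CpG row, 1 kb window and gene end (1 kb either side of each end of a protein-coding gene) with a range of at least 5 points. Windows and gene ends averaged at least 3 rows with values in all mice. A log2 ratio difference is on this transformed scale. Tests were two-sided, with Benjamini-Hochberg adjustment over the whole table. The members, gene lists and tests were chosen with earlier results of these data known. The text names, per comparison, the 5 member rows and 5 member windows with the smallest p, all member gene ends, and the 3 gene ends most like the Rcan1 end. The labels do not say what the replicate numbers mark, and the main fits took the mice as unpaired. Same-numbered mice did not deviate together (correlations of deviations -0.0179 to 0.0192 over 15 pairs). Such correlations cannot show whether the numbers mark a shared cage, litter or batch. The procedure was tested on simulated data with normally distributed noise. Most windows and gene ends given a large change passed the adjustment. With a smaller change fewer gene ends and few windows did, and no single row did with either. Only features of intermediate level were changed, so the test does not show what could be detected at low levels, where many member rows lie.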

Additional observations from a re-analysis of the deposited data

Results flagged for a closer look

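In 7 of 75 groups of 5 mice examined, 1 mouse stood far from the other 4 (Dixon's criterion). By chance it flags about 1 in 20 groups where values are independent and normally distributed. The groups here share mice and rows, and in some the other mice are at 0%, so the count is no test. Over the rows of Ppp3ca, enriched mouse 1 had a level of 32.5% from 34 of 51 rows, with the other enriched mice at 16.4% to 19.6%. Over those of Ppp3cc, withdrawal mouse 5 had 11.3%, with the others at 25.2% to 26.7%. Its level came from 8 of 20 rows, as did that of withdrawal mouse 3. Over those of Ppp3r1, withdrawal mouse 2 had 24.4%, with the others at 8.53% to 11.8%. This mouse had only 10 of 30 rows and withdrawal mouse 5 had 13, while the others had 29 or 30. Levels from few rows are less certain, and what part the missing rows had was not tested. At the 5 complete Ppp3r1 rows near the start, counted both as a window and as a gene end, enriched mouse 3 had 1.06% and the others 0%. In the Nfatc1 window at 80707053 to 80707112, enriched mouse 5 had 56.8%, with the others at 69.3% to 73.1%. In the Rcan1 window at 92470450 to 92470548, outside the gene beyond its longer start, withdrawal mouse 1 had 49.4%, with the others at 7.5% to 19.4%.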

How the results depend on the processing

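No member window or gene end was called in any alternative run. No member row was either. Over the whole table, 62, 56 and 65 of 455,664 rows were called without the range filter in the 3 comparisons. With at least 4 mice per group 1 of 215,940 was, for withdrawal against enriched. In the other runs no row of the table was called, so the lack of a called member row there says nothing about stability. At most 1 window and 2 gene ends of the whole table were called in a comparison of any run. The named rows and windows kept their direction in all 303 and 283 alternatives computed, with a smallest adjusted p of 0.381 and 0.607. Numbers of member rows at an unadjusted p under 0.05 moved most with complete rows only, which leaves 53 to test: 7, 6 and 4 in place of 17, 14 and 11, a larger share of the rows tested (13.2%, 11.3% and 7.55% in place of 6.34%, 5.22% and 4.10%). Without the range filter the first was 11. Leaving out 1 mouse gave 12 to 20, 10 to 21 and 9 to 16. For windows, the 2 of enriched against standard became 1 on the percent scale, with 500 base windows and with at least 2 rows; leaving out 1 mouse gave 1 to 3 (1 in 11 of 15 cases), 1 to 3 and 0 to 2, and the 3 of withdrawal against standard became 1 without standard mouse 1. For the Ppp3r1 gene end leaving out 1 mouse gave 0 to 1 (0 in 9 cases); without standard mouse 4 its range was too small to test. The Rcan1 end difference for enriched ran from -50.3 to -34.8 points without 1 mouse and from -45.6 to -32.7 under the other alternatives; for withdrawal it ran from -37.9 to -21.8 and from -31.7 to -22.5. A coverage minimum could not be tried on percentages alone.

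Same-numbered mice did not deviate together: 0 of 15 pairs had a correlation over 0.1, and 2 of 15 were highest with their own number. With the replicate block, member rows at an unadjusted p under 0.05 were 11, 15 and 11, windows 1, 3 and 2, and the Ppp3r1 gene end was not among them (0), with 0 called.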

Other observations

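At 20 member CpGs both strands had a row. The absolute difference between the strands of a mouse was reduced to its median at each CpG. The median of these was 5.38 points, against 0 over all 29,826 such CpGs of the table. These sets were not matched for level. At the Rcan3 CpGs 135434100 and 135434103 both strands were at 0%, with a difference of 0. At the Rcan2 CpGs from 43953909 to 43954133 a strand averaged 9.65% to 35.2%, and the median differences were 4.38 to 20.6 points. In Rcan1 the CpG at 92426808 averaged 54.8% on the plus and 13.3% on the minus strand over 12 mice, with the plus strand higher in 11. A mean difference over 40 points between strands was found at 0.439% of all such CpGs. Without read counts, the precision behind either strand is unknown.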
